A study of Homo sapiens with 6 samples.

Results

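The SMAD transcription factors, the corepressors SKI and SKIL and the ubiquitin ligase SMURF2 were followed as 10 genes: SMAD1 to SMAD7, SKI, SKIL and SMURF2. A probe set, the group of short probes that reads 1 transcript on an Affymetrix expression array, was taken where the platform's table gave it a single symbol and that symbol was one of the 10. This held for 40 of the 41091 probe sets with a single symbol, and the 10 genes were all measured, among 19775 in all. Messenger RNA came from a pair of cybrid lines, cells made by fusing a mitochondrial donor with a cell that has lost its mitochondrial DNA. Both lines share 1 recipient and so, by design, 1 nuclear background, which was not tested here. The recipient is 143B p0, an osteosarcoma line that lacks thymidine kinase and was rid of its mitochondrial DNA. The 10A/143B cybrids took their mitochondria from MCF10A, a non-tumour breast epithelial line, and the 468/143B cybrids from MDA-MB-468, a breast cancer line. Donor cells were treated with actinomycin-D before fusion by polyethylene glycol, and selection relied on bromodeoxyuridine (BrdU), which kills donors, and on the absence of uridine, which unfused 143B p0 cells need. The labels speak of triplicate RNA extraction, which gives 3 arrays per group, but nothing says whether these were separate cultures or more than 1 fusion clone. The 143B/143B cybrid that the protocols also describe was not analysed here. The study's title asks whether non-cancerous mitochondria turn down oncogenic pathways in metastatic cells.

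SMADs carry signals of the transforming growth factor beta (TGF-beta) family from the membrane to the nucleus. Ligand-bound receptors phosphorylate the receptor-regulated SMADs: SMAD2 and SMAD3 in the TGF-beta and activin branch, SMAD1 and SMAD5 in the bone morphogenetic protein (BMP) branch. These join SMAD4, the partner common to both branches, and bind DNA with other factors. SMAD6 and SMAD7 inhibit the receptors and are themselves induced by the pathway. SKI and SKIL (also called SnoN) hold SMAD complexes in a repressive state, and SMURF2 marks SMADs, receptors and SKIL for degradation. In cells of bone lineage, such as osteosarcoma, both branches govern matrix production and differentiation.

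Median intensity, the deposited linear signal, ran from 21.7 to 24.4 on the 10A/143B arrays and from 20.4 to 21.4 on the 468/143B arrays. The SD of log2 differences between replicates 2 and 3, taken over the 9220 brightest probe sets (mean log2 over 8), was 0.08 for 10A/143B and 0.09 for 468/143B, while replicate 1 stood 0.27 to 0.29 from either. Replicates 2 and 3 were near duplicates in both groups, so replicates 2 and 3 were averaged and counted as 1 sample. Each group thus has n = 2. P-values rest only on the spread between these samples, pooled in part over all probe sets by intensity, and that spread may be technical. SDs given below are of these 2 samples, and leave out the spread between replicates 2 and 3. For ACTB, the 3′/5′ probe set ratio that tracks RNA integrity ran from 1.59 to 1.92 in 10A/143B and from 1.18 to 1.67 in 468/143B, and its part in the results was not tested. The arrays' titles name only the mitochondrial donor, so the group and the replicate number were taken from the source name. The titles number the arrays differently: replicates 1, 2 and 3 here are 3, 1 and 2 in the titles of both groups, which leaves the same arrays with a shared number. The mesenchymal filament VIM had mean intensities over 3 arrays of 8687 and 8418 in 10A/143B and 468/143B and the osteoblast factor RUNX2 of 513.5 and 604.9, but the mesenchymal markers COL1A2 (8.49 and 8.76) and THY1 (31.5 and 30.0) were dim. Among epithelial and basal markers EPCAM (55.3 and 36.8), CDH1 (7.92 and 14.9), KRT5 (1.00 and 1.36) and KRT14 (16.5 and 10.6) were dim, while KRT18 (4908 and 6198), EGFR (1595 and 1206), LAMB3 (778 and 615) and KRT8 (206 and 439) were not. Of 12 markers of epithelium or MDA-MB-468, 2 were lower in 10A/143B (KRT8 and KRT18) and 0 higher (limma, 1, EGFR, at an unadjusted p under 0.05).

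Differences below are 10A/143B minus 468/143B on the scale log2(intensity + 16), which understates changes of dim probe sets, with the standard error (SE) of a limma fit to all 41091 probe sets. A probe set passed where its Benjamini-Hochberg adjusted p was under 0.05. Of the 40 probe sets, 13 were higher in 10A/143B and 1 was lower. Over all probe sets, 17.9% passed, 11.7% higher and 6.14% lower, so the members' share of higher calls (32.5%) stood above the background, and nothing was read from the single lower call. That background was not matched to the members' intensities. The median difference was 0.39 for the members and 0.0015 for all probe sets. With each gene represented by its brightest probe set, 4 of 10 were higher (SMAD1, SMAD5, SKI and SKIL) and 0 lower, against 12.7% higher and 7.74% lower of all genes (20.4% passed). At an unadjusted p under 0.05, 5 of the 10 genes differed, the fifth being SMAD3, against 32.3% of all genes. The groups' arrays did not overlap for 21 probe sets that were higher and 7 that were lower in 10A/143B, where 24.3% and 18.5% of all probe sets did so (42.8% in either direction). Fewer member probe sets passed without replicate 1 of 10A/143B or without that of 468/143B. Without that of 10A/143B fewer of all genes passed as well, so that drop is not particular to the members. In those fits 1 group is a single sample whose spread is taken from the other. With 6 separate arrays it was 24 (19 higher, 5 lower), against 31.0% of all probe sets (18.6% higher, 12.4% lower). Calls over all genes were 62.1% higher in 10A/143B as deposited, 52.6% after median centring and 50.8% after quantile normalization.

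**Figure D1:**
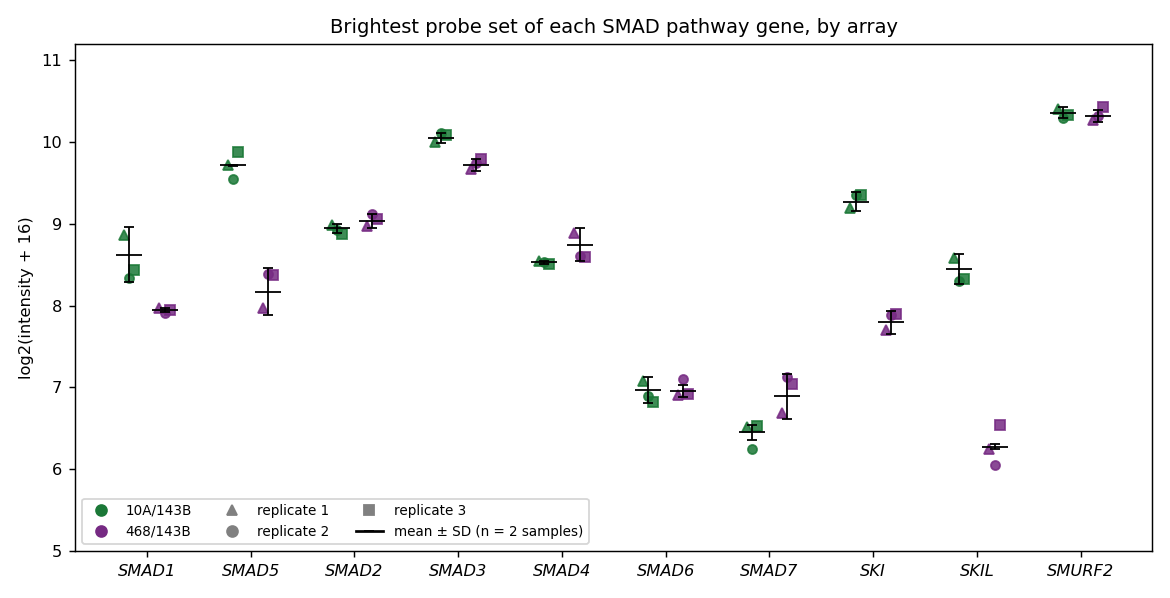
Log2(intensity + 16) of the brightest probe set of each of the 10 genes on each array (green 10A/143B, purple 468/143B, marker shape by replicate), with bars for mean ± SD of 2 samples per group, replicates 2 and 3 being averaged. SMAD5, SKI and SKIL stand clearly higher on all 10A/143B arrays, SMAD7 lower, and SMAD6, SMAD2 and SMURF2 overlap between the groups.

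SKIL showed the largest difference of the brightest probe sets. Its probe set 225227_at had intensities of 367, 300.2 and 304.4 on the 10A/143B arrays (given here and below in the order of replicates 1, 2 and 3) and 60.1, 50.2 and 77.2 on the 468/143B arrays. Every 10A/143B array lay far above every 468/143B array, and SKIL was 4.52-fold higher (log2 8.45 ± 0.19 against 6.27 ± 0.03, SD, n = 2, difference 2.18 ± 0.19 SE, limma adjusted p = 0.00113). A further SKIL probe set, 217591_at, read 45.6, 55.3 and 53.4 against 3.81, 6.41 and 6.92, a difference of 1.64 ± 0.28 (limma adjusted p = 0.00758). It did not pass without replicate 1 of 10A/143B (adjusted p = 0.0530) or of 468/143B (adjusted p = 0.112), with a range of 9.53e-05 to 0.112 over all alternatives. The other 3 SKIL probe sets were dim, with intensities of at most 28.8, and did not pass (0.69 ± 0.31, 0.42 ± 0.22 and 0.20 ± 0.28). All 5 thus had a positive difference.

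SKI, the other corepressor, was 2.78-fold higher on its brightest probe set, 229265_at. Intensities were 568.1, 639.1 and 639.1 in 10A/143B and 191.3, 221.3 and 222.9 in 468/143B, with no overlap (9.27 ± 0.12 against 7.80 ± 0.14, difference 1.48 ± 0.15 SE, limma adjusted p = 0.00157). The dimmer SKI probe set 204270_at read 42.5, 63.1 and 76.1 against 19.2, 22.3 and 27.5. Its arrays did not overlap either, and its difference of 0.90 ± 0.32 did not pass (adjusted p = 0.107) but did with the replicate number as a block (limma adjusted p = 0.0434). On 213755_s_at SKI stood between 15.3 and 25.8 on all 6 arrays, with overlapping groups (0.13 ± 0.27).

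SMAD5, which carries BMP signals, was the receptor-regulated SMAD with the largest difference. Its probe set 225219_at read 826, 734.2 and 922.9 in 10A/143B and 233.9, 317.4 and 315.2 in 468/143B (9.72 ± 0.0033 against 8.17 ± 0.29, 2.92-fold, difference 1.54 ± 0.16 SE, limma adjusted p = 0.00175). On 225223_at the intensities were 580, 608.9 and 608.9 against 238.9, 215.3 and 221.3 (1.32 ± 0.14, limma adjusted p = 0.00162). No array of one group reached those of the other on either probe set. SMAD5 did not behave alike on the rest. Its probe set 205188_s_at read 174.9, 147 and 156.5 in 10A/143B, below 249, 207.9 and 222.9 in 468/143B (-0.47 ± 0.17, adjusted p = 0.120). With 6 separate arrays, where near duplicates count separately, its limma adjusted p was 0.0131. Differences of 0.41 ± 0.16 on 235451_at and 0.07 ± 0.25 on 205187_at did not pass.

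SMAD1, the other BMP-branch SMAD, was higher by a smaller margin on 2 of its 3 probe sets. The brightest, 210993_s_at, read 448.8, 306.6 and 330.8 in 10A/143B against 233.9, 224.4 and 230.7 (8.62 ± 0.34 against 7.95 ± 0.03, 1.60-fold, difference 0.68 ± 0.19 SE, limma adjusted p = 0.0474). Replicate 1 of 10A/143B was the highest of the 6 arrays, and the lowest 10A/143B array still lay above every 468/143B array. The call was lost without 10A/143B replicate 1 (0.44, adjusted p = 0.197), 10A/143B replicate 3 (adjusted p = 0.0742) or any of the 3 468/143B replicates (adjusted p from 0.0537 to 0.199), and adjusted p ran from 0.00235 to 0.199 over all alternatives. On 227798_at SMAD1 read 328.6, 377.4 and 349.7 against 215.3, 218.3 and 233.9 (0.61 ± 0.15, limma adjusted p = 0.0286). That call too was lost without replicate 1 of 10A/143B (adjusted p = 0.0901) or of 468/143B (adjusted p = 0.167). The remaining probe set, the dim 208015_at, did not pass (0.54 ± 0.29, adjusted p = 0.284). SMAD1 also did not pass under median centring on either probe set (adjusted p = 0.0990 and 0.0531).

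SMAD2, a TGF-beta-branch SMAD, gave different answers on its 6 probe sets. On the brightest, 203076_s_at, intensities of 491.1, 471.1 and 455.1 in 10A/143B overlapped those of 487.8, 541.2 and 519.1 in 468/143B (-0.09 ± 0.13, adjusted p = 0.713). On 226563_at SMAD2 read 418.8, 410.1 and 407.3 against 178.5, 198.1 and 172.4, which is 2.17-fold higher (1.12 ± 0.14, limma adjusted p = 0.00284). On 203075_at it read 600.5, 600.5 and 617.4 against 330.8, 308.7 and 296.1 (0.90 ± 0.13, limma adjusted p = 0.00412, but 0.0539 without 10A/143B replicate 1). The other 3 were higher by 0.38 to 0.65 without passing. SMAD2 thus had non-overlapping arrays, all higher in 10A/143B, on 5 of 6 probe sets, beside 24.3% of all probe sets. None of these 5 was the brightest.

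SMAD3, its partner in that branch, had no settled direction. Its brightest probe set, 218284_at, read 1010, 1090 and 1068 in 10A/143B and 797.9, 843.4 and 873.1 in 468/143B, without overlap. The difference of 0.33 ± 0.11 missed the threshold (adjusted p = 0.0939) and passed with the replicate number as a block (limma adjusted p = 0.0445). On 205397_x_at, a probe set whose suffix marks possible cross-hybridisation, SMAD3 read 32, 61 and 64.9 against 113, 173.6 and 178.5. There it was 2.56-fold lower (-1.35 ± 0.33, limma adjusted p = 0.0291), the only lower call among the 40, and not without replicate 1 of 10A/143B (adjusted p = 0.162) or of 468/143B (adjusted p = 0.0935). On 205398_s_at the groups again did not overlap, with 10A/143B lower (-0.33 ± 0.15, adjusted p = 0.188), and on 205396_at they overlapped (0.18 ± 0.27).

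SMAD4, the common partner, was split more widely. Its brightest probe set, 202527_s_at, read 357.1, 354.6 and 347.3 in 10A/143B and 458.3, 374.8 and 372.2 in 468/143B (8.53 ± 0.02 against 8.75 ± 0.20, difference -0.22 ± 0.15 SE, adjusted p = 0.411). On 235725_at SMAD4 read 427.6, 430.5 and 421.7 against 106.2, 114.6 and 121.1. That is 3.46-fold higher, with tight arrays in both groups (1.79 ± 0.16 SE, limma adjusted p = 0.00113). The dim 1565703_at followed, with 34.8, 23.9 and 26.5 against 6.92, 5.31 and 7.78 (1.01 ± 0.26, limma adjusted p = 0.0353). It did not pass without replicate 1 of 10A/143B (adjusted p = 0.116) or replicate 1 (adjusted p = 0.232) or 2 (adjusted p = 0.0508) of 468/143B. SMAD4's other 2 probe sets lay at intensities of 22.6 or less and overlapped.

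Neither inhibitory SMAD passed. SMAD7 was read by a single probe set, at 75.6, 59.7 and 76.1 in 10A/143B and 87.4, 123.6 and 116.2 in 468/143B. All 10A/143B arrays were the lower ones, and the difference of -0.44 ± 0.24 did not pass (adjusted p = 0.296). It passed with 6 separate arrays (limma adjusted p = 0.0434), a fit in which near duplicates count separately. On its brightest probe set SMAD6 read 119.4, 102.5 and 97 against 104, 121.1 and 104.7, with overlapping groups (0.01 ± 0.21). The other 3 SMAD6 probe sets never exceeded an intensity of 61.4. Of these, 213565_s_at (-0.80 ± 0.37) and 209887_at (-0.45 ± 0.16) were lower on every 10A/143B array without passing. They passed with 6 separate arrays (limma adjusted p = 0.0497 and 0.0209), where near duplicates count separately. The very dim 209887_at read 4.03, 2.20 and 2.57 in 10A/143B against 10.9, 7.73 and 11.8 in 468/143B.

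SMAD6, SMAD7 and SKIL are feedback genes that SMAD complexes are known to induce, so the 250 bases before their annotated starts are shown, from RefSeq on GRCh38.p14. Capitals mark GTCTAGAC, the palindrome that SMAD3 and SMAD4 prefer, CAGAC, a core SMAD box, and GGCGCC, a GC-rich site bound in BMP responses. Each was searched on both strands, and no 2 of the motifs overlapped here. The windows lie at chr15:66701986-66702235 (plus strand), chr18:48950966-48951215 (minus strand) and chr3:170357465-170357714 (plus strand).
SMAD6: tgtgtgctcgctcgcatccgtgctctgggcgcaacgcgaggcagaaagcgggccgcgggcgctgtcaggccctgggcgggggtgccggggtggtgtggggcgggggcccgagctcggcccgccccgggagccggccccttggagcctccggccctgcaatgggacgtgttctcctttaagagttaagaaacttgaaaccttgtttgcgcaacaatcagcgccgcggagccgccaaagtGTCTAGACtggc
SMAD7: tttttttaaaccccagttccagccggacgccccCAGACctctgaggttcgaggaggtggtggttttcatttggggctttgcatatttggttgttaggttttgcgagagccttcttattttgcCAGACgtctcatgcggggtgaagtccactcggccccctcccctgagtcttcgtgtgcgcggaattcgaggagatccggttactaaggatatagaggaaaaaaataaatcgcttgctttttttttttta
SKIL: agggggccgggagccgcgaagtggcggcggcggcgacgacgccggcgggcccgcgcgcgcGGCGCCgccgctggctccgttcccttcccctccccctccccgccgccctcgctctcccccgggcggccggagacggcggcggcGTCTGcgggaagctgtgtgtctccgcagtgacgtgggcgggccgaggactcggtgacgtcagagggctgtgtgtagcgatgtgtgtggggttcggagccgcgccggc
SMAD6 held GTCTAGAC once, from 12 to 5 bases before the start, a match found in 0.176% of 27305 promoter windows of this length. SMAD7 held CAGAC at 217 and 128 bases before the start, and SKIL held it once, at 107, beside 1 GGCGCC at 190. CAGAC occurs in 37.8% and GGCGCC in 16.1% of all windows, so those matches are common letters. Of the 3, SKIL passed as higher and SMAD6 and SMAD7 did not pass. Promoters were listed for 9 of the 10 genes, SKI being the exception. Among the others GGCGCC stood in SMAD2, SMAD3 and SMAD4, and none of the motifs in SMAD1, SMAD5 or SMURF2. A match describes the letters only.

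SMURF2, the ligase, repeated the split seen in SMAD4. Its brightest probe set, 205596_s_at, read 1342, 1243 and 1270 in 10A/143B and 1218, 1261 and 1361 in 468/143B, with overlap (10.36 ± 0.07 against 10.32 ± 0.07, difference 0.04 ± 0.11 SE, adjusted p = 0.861). On 230820_at the groups overlapped as well (-0.09 ± 0.14). By contrast 227489_at read 814.6, 719.1 and 714.1 against 282.1, 270.6 and 237.2, 2.75-fold higher (1.46 ± 0.14, limma adjusted p = 0.00137). On 232020_at SMURF2 read 458.3, 501.5 and 481 against 76.1, 148.1 and 142, 4.03-fold higher (2.01 ± 0.26, limma adjusted p = 0.00303, or 0.0630 without 10A/143B replicate 1). Replicate 1 was the lowest 468/143B array there, and the other 2 still lay far below 10A/143B.

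**Figure D2:**
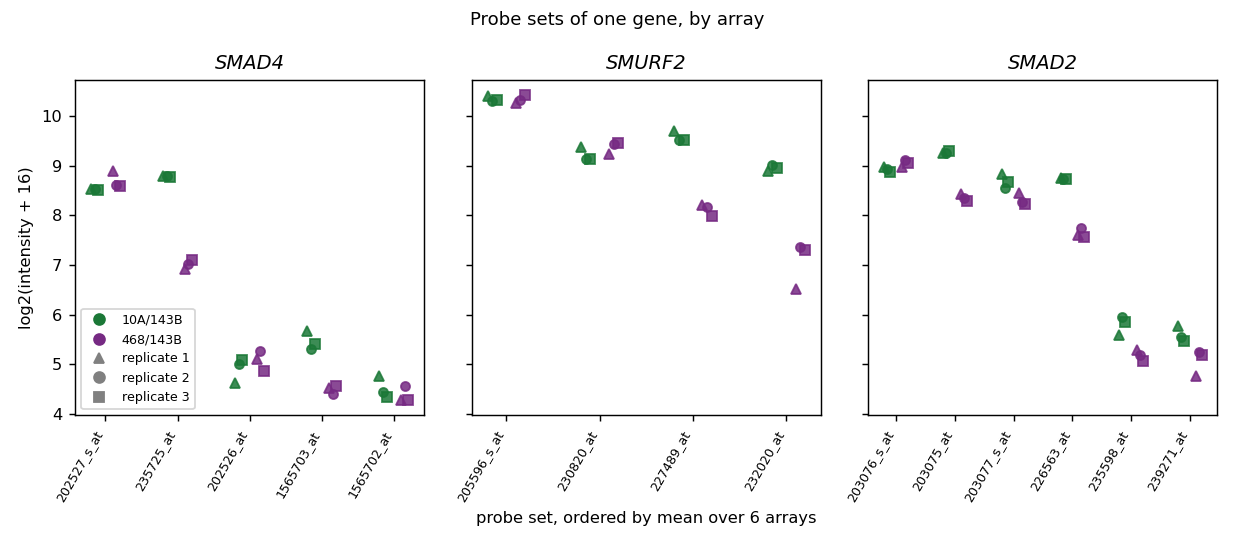
Log2(intensity + 16) of every probe set of SMAD4, SMURF2 and SMAD2 on each array (green 10A/143B, purple 468/143B, marker shape by replicate), ordered by the mean over 6 arrays. In each gene the brightest probe set differs little between the cybrids, while 235725_at of SMAD4, 227489_at and 232020_at of SMURF2 and 203075_at and 226563_at of SMAD2 stand higher in 10A/143B.

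The disagreement within genes can be put as the log2 ratio of each other probe set to the brightest of its gene within an array. These ratios restate differences already seen in the same values, so they are a description and support nothing further. For SMAD4, the ratio of 235725_at to 202527_s_at was higher in 10A/143B by 2.01 ± 0.27 (4.02-fold). For SMAD5, that of 205188_s_at to 225219_at was lower (-2.01 ± 0.32, 4.04-fold). For SMURF2 the ratios of 232020_at (1.97 ± 0.33) and 227489_at (1.42 ± 0.27) were higher, and for SMAD2 those of 226563_at (1.21 ± 0.25) and 203075_at (0.99 ± 0.23). In a limma fit of all 21316 such ratios, added after the members' values were seen, 12 of the members' 30 had an adjusted p under 0.05 (6 higher and 6 lower), where 9.98% of all ratios did (3.74% higher, 6.24% lower). Of the 12, 4 rest on probe sets with no array above 34.8 (206675_s_at and 232379_at of SKIL, 213755_s_at of SKI and 1565703_at of SMAD4), where the offset of 16 compresses differences. The count is not stable: with an offset of 1 it was 0 (limma, 13 at an unadjusted p under 0.05), and without replicate 1 of either group it was 0 (15 unadjusted without that of 10A/143B and 13 without that of 468/143B).

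Of the 13 probe sets that were higher in 10A/143B, 10 shared a kind of target. The platform's table names for each probe set the sequence it was designed on, here sorted by accession prefix into RefSeq messenger RNAs, other messenger RNA records and expressed sequence tags (ESTs), which are single short reads of a transcript. Of 17 member probe sets designed on ESTs, 10 were higher in 10A/143B and 0 lower, with a median of 0.90. Of 9 designed on RefSeq messenger RNAs, 0 were higher and 0 lower, with a median of 0.01. Arrays did not overlap for 3 of the 9 that were higher and 4 that were lower, beside 2099 and 2259 of all 9553 RefSeq probe sets. Of 10 on other messenger RNA records, 2 were higher and 1 lower, and of 4 with no listed sequence, 1 was higher. Over the whole array, 2139 were higher and 529 lower of 12570 EST probe sets (median 0.08), and 981 and 881 of 9553 RefSeq probe sets (10.3% and 9.22%, median -0.04). Of 11012 probe sets on other messenger RNA records 7.76% were higher and 5.71% lower, and of 5742 with no listed sequence 9.49% and 6.13%. These counts were sorted after the values were seen and carry no test, and the files do not say where in a transcript a probe set lies. With the mean over a gene's probe sets in place of the brightest, 6 of the 10 genes passed, all higher, where 16.3% of all genes passed (9.46% higher, 6.82% lower). They were SMURF2 (0.86 ± 0.12, limma adjusted p = 0.00681), SKIL (1.02 ± 0.19), SKI (0.83 ± 0.17), SMAD1 (0.61 ± 0.14), SMAD2 (0.58 ± 0.12) and SMAD5 (0.58 ± 0.12).

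**Figure D3:**
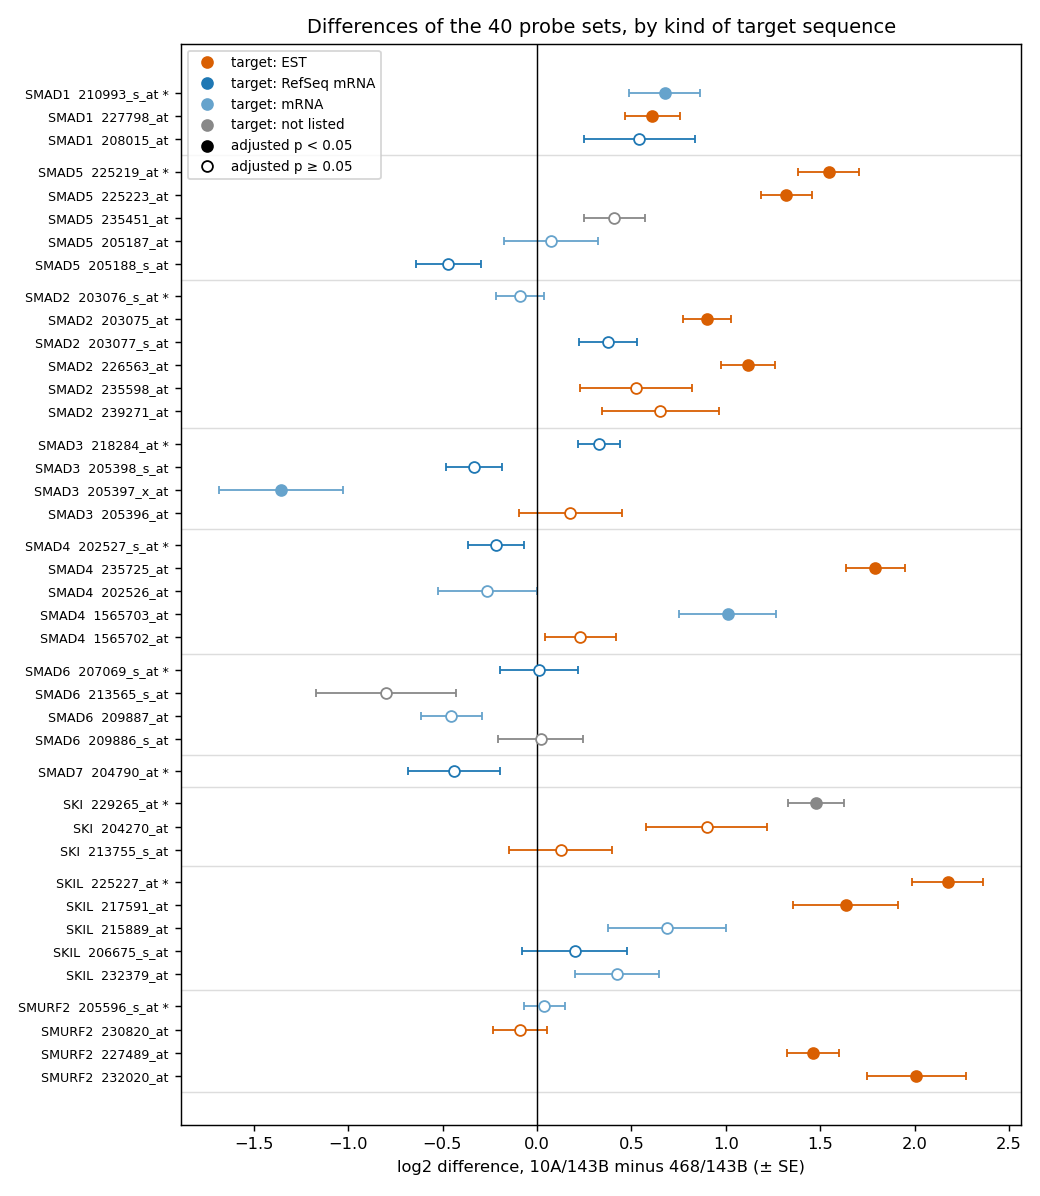
Log2 difference (10A/143B minus 468/143B) ± SE of the 40 probe sets, grouped by gene with the brightest first and starred, coloured by the kind of sequence each was designed on, filled where adjusted p was under 0.05. Of 17 EST probe sets (orange) 10 are filled on the right, and of 9 RefSeq probe sets (dark blue) 0 are filled.

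Neighbouring genes gave a measure of regional shifts. The 20 nearest measured genes of SKIL on chromosome 3, from MECOM to FNDC3B, had a median difference of 0.54, with 8 higher and 0 lower, below SKIL's own 2.18. Those of SKI on chromosome 1 had a median of -0.35, with 0 higher and 1 lower, opposite to SKI's 1.48. SMAD5's neighbours on chromosome 5 had a median of 0.19 (3 higher) and SMAD1's on chromosome 4 one of 0.05 (6 higher, 1 lower), both below the genes' own values. SMAD3 (0.33) lay near its neighbours' 0.25 and SMAD6 (0.01) below its neighbours' 0.34, both on chromosome 15. For SMAD2, SMAD4 and SMAD7 on chromosome 18 and SMURF2 on chromosome 17 neighbour medians ran from -0.08 to 0.09. Protein-coding genes of the members' length classes, of 10 equal classes, had medians from -0.01 to 0.22.

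The other genes of the pathway were read by their brightest probe set. Of 53 listed genes that passed, 42 had further probe sets: 18 had one that passed in the same direction, 2 (NEDD4L and ZEB2) one that passed in the opposite direction, and for 22 no other probe set passed. Receptors and ligands of the TGF-beta and activin branch moved both ways. Of 20 genes, 4 were higher and 5 lower in 10A/143B (background 12.7% and 7.74% of genes), with a median of -0.22 against -0.02 for all genes. The ligand TGFB1 was 3.05-fold lower, at mean intensities of 224.3 and 718.2 (-1.61 ± 0.25, limma adjusted p = 0.0052), although its other probe set gave -0.23 ± 0.19, and FST, which binds activin, was 1.89-fold lower (-0.92 ± 0.17, others -0.59 ± 0.22 and -0.30 ± 0.17). The activin receptors ACVR2B (1.85 ± 0.22) and the dim ACVR1C (1.77 ± 0.30, mean intensities 71.0 and 9.68) were higher. No other probe set of ACVR2B (0.81 ± 0.33 and 0.54 ± 0.28) or ACVR1C (0.74 ± 0.22) passed. Fewer of the 20 passed without replicate 1 of 10A/143B or without that of 468/143B, fits in which 1 group is a single sample. In the BMP branch 2 of 17 measured genes were higher and 5 lower (median -0.12), and fewer passed without replicate 1 of either group. The decoy receptor BAMBI was 4.02-fold lower (-2.01 ± 0.18, limma adjusted p = 0.00126), the antagonist GREM1 3.45-fold lower (-1.79 ± 0.13) and the ligand BMP7 2.52-fold lower (-1.34 ± 0.16), although its other 3 probe sets did not pass (-0.65 ± 0.43, -0.09 ± 0.34 and -0.02 ± 0.17). The receptor BMPR2 was 3.92-fold higher (1.97 ± 0.24). Its mean intensities were 151.8 and 26.8.

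Genes that place, modify or remove SMAD proteins included 8 higher and 5 lower of 25 (median 0.27), or 5 in all without 10A/143B replicate 1. PPP1R15A, a phosphatase subunit that can act on the TGF-beta receptor, was 5.87-fold lower (-2.55 ± 0.15, limma adjusted p = 8.08e-04). USP9X, which removes ubiquitin from SMAD4, was 2.92-fold higher (1.55 ± 0.20), the endosomal anchor ZFYVE16 2.54-fold (1.34 ± 0.20) and the ligase WWP1 2.43-fold (1.28 ± 0.24). NEDD4L, another ligase, one of the 5 lower and named after its values were seen, has no settled direction (-1.09 ± 0.12 on its brightest probe set, 1.51 ± 0.19 on 212448_at and 2.01 ± 0.23 on 226974_at, all passing). SMURF1, the relative of SMURF2, and the SMAD phosphatase PPM1A did not pass (-0.55 ± 0.27 and -0.07 ± 0.15). Of 28 DNA-binding partners, coactivators and corepressors, 6 were higher and 1 lower (21.4% and 3.57%, median 0.23), beside 12.7% and 7.74% of all genes. Fewer of the 28 passed without replicate 1 of 10A/143B or without that of 468/143B. The repressors ZEB2 (1.90 ± 0.25) and ZEB1 (0.92 ± 0.12) and the acetyltransferase KAT2B (0.97 ± 0.22) were higher, and the coactivator TGFB1I1 was lower (-1.52 ± 0.18). ZEB2 was lower on its probe set 233033_at (-0.78 ± 0.17, limma adjusted p = 0.0200), so it has no settled direction. SMAD9, the third BMP-branch SMAD, was higher by 0.66 ± 0.18 (limma adjusted p = 0.0473), though not on its other probe set (-0.11 ± 0.26).

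More of the known target genes were lower than higher in 10A/143B. Of 33 measured TGF-beta and SMAD3 targets, 2 were higher and 8 lower in 10A/143B (6.06% and 24.2%), with a median of -0.38. Of all genes 12.7% were higher and 7.74% lower. GADD45B, a stress and growth-arrest gene, was 5.72-fold lower, at mean intensities of 466.3 and 2746 (-2.52 ± 0.10, limma adjusted p = 5.61e-04). The matrix genes FN1 (4.96-fold, -2.31 ± 0.13) and THBS1 (4.48-fold, -2.16 ± 0.17) and the small GTPase RHOB (3.04-fold, -1.61 ± 0.18) were lower as well. The 2 higher genes, named after their values were seen, were SOX4 and PMEPA1, an inhibitor that captures receptor-regulated SMADs. PMEPA1 differed by 0.60 ± 0.13, by 2.59 ± 0.24 on 222450_at (limma adjusted p = 0.00134) and by 0.45 ± 0.19 on 217875_s_at, which did not pass. No other probe set of SOX4 passed (-0.23 to 0.33). Of 25 BMP and SMAD1/5 targets, 1 was higher and 9 lower (4.0% and 36.0%, median -0.45), beside 12.7% and 7.74% of all genes. BAMBI is among them, as are MSX2 (2.77-fold lower, -1.47 ± 0.15), DLX5 (2.60-fold lower, -1.38 ± 0.19), both homeobox genes of bone, and ID2 (2.66-fold lower, -1.41 ± 0.29). No other probe set of MSX2 (0.12 ± 0.33 and -0.15 ± 0.36) or ID2 (-0.31 ± 0.16) passed, nor did the other 4 of RHOB (-1.30 to -0.01). ID1, the classical BMP target, was higher by 0.41 ± 0.15 without passing (adjusted p = 0.116), and MSX1, named after its value was seen, was the 1 higher gene (0.74 ± 0.18, but -0.53 ± 0.34 on its other probe set) and did not pass after median centring. Many of these targets answer to other pathways too. Fewer targets of either list passed without replicate 1 of 10A/143B or without that of 468/143B, fits in which 1 group is a single sample. With probe sets ending in _x_at or _s_at left out, 3 of the 19 BMP targets still measured passed, all lower. The share of all genes under that choice is not given here, so this count carries no background.

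**Figure D4:**
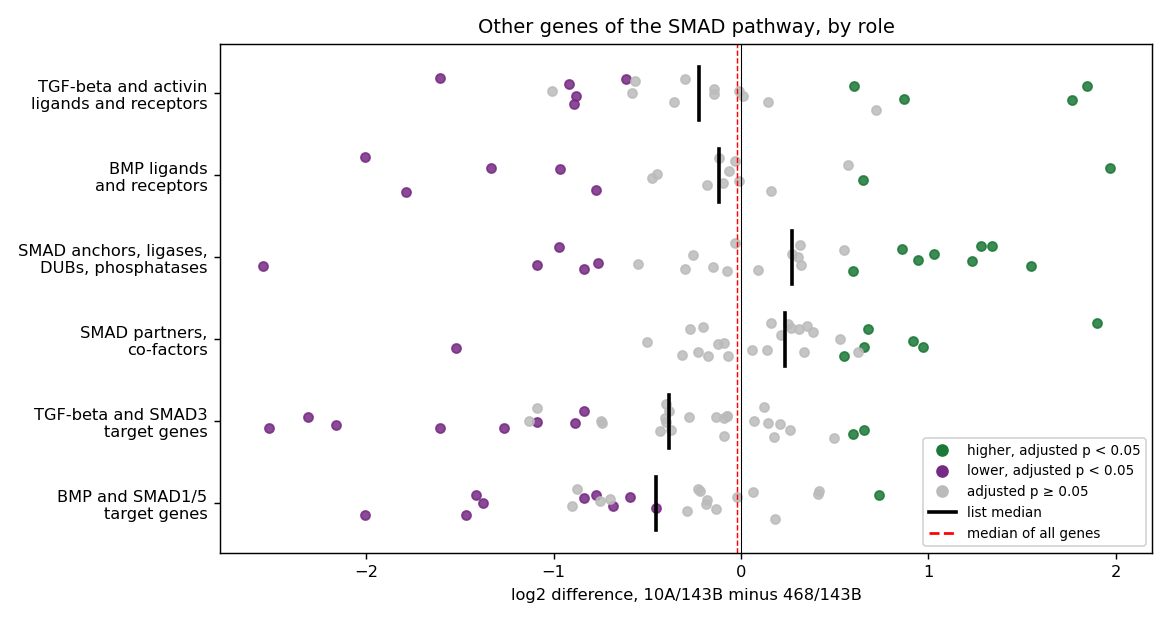
Log2 difference (10A/143B minus 468/143B) of the other genes of the pathway in 6 lists by role, 1 point per gene, coloured where adjusted p was under 0.05 (green higher, purple lower), with the list's median as a black bar and the median of all genes (-0.02) as a dashed line. Medians are -0.38 for TGF-beta targets and -0.45 for BMP targets, and 0.27 and 0.23 for SMAD modifiers and partners.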

How the data were processed

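The authors deposited 1 linear intensity for each probe set of each Affymetrix array, prepared by the manufacturer's protocol, per the labels' protocols. How they were summarised, background-corrected and scaled is not given in the sources used here. Log2 of 100% of the deposited values is a multiple of 0.01 within 1e-05, and the lowest intensity is 1. The number of arrays limits the precision, and depth does not apply.

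Gene names came from the platform's table (41097 of 42898 listed probe sets with 1 symbol, 1801 with several), updated through Entrez identifiers to GRCh38.p14. Source names gave each array's group and number. The comparison used limma 3.58.1 (R 4.3.3), with its trended empirical Bayes variances, two-sided tests and a threshold of 0.05, on log2(intensity + 16) with replicates 2 and 3 averaged. Every adjusted p is limma's with Benjamini-Hochberg adjustment. The procedure was also run on simulated independent samples drawn from its own model, which cannot check the effect of linked replicates. The lists by role and the members were chosen with earlier results of these data known. Named were all members, up to 4 genes per list with the largest called difference, and VIM, RUNX2, EPCAM, CDH1, KRT5, KRT14, PPM1A, SMURF1, SMAD9 and ID1 whatever their values. One further gene of that rule is not reported here. Markers of basal epithelium (5 measured, 0 higher, 1 lower), fibroblasts or smooth muscle (8, 1 and 2), bone or mesenchyme (8, 1 and 2) and blood or endothelium (7, 0 and 0; limma, 0 at an unadjusted p under 0.05) were also checked.

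Same-numbered arrays of the groups deviated from their group means together (correlations 0.27, 0.22 and 0.21), as did replicates 2 and 3 across numbers (0.26 and 0.20). The numbers come from the source names. Alternatives were the offset, scaling, filter, trend, probe set choice, replicate block, batch term, 6 separate arrays and each replicate left out.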

Additional observations from a re-analysis of the deposited data

How the results depend on the processing

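Of the 14 member probe sets that passed, 0 changed direction under any alternative that held them, and 7 passed under each: 225219_at and 225223_at of SMAD5, 226563_at of SMAD2, 235725_at of SMAD4, 229265_at of SKI, 225227_at of SKIL and 227489_at of SMURF2. With 6 separate arrays the counts were 24 member probe sets, 14 partners, 16 TGF-beta targets and 6827 of all genes (4038 in the averaged fit). A replicate block over 6 arrays gave 22, 16, 17 and 7381, and replicate 1 as a batch term 25, 17, 20 and 8318, with 14 TGF-beta ligands and receptors and 20 ratios. The replicate block in the averaged fit gave 16 member probe sets and 5 member genes, where 5387 of all genes passed (4038 without the block). It moved no other count by more than 1.5 times. Without an intensity trend 4 partners and 5 BMP targets passed. Averaging all probe sets of each gene gave 5 TGF-beta ligands and receptors, 4 partners and 6 BMP targets, where 16.3% of all genes passed. Leaving out _x_at and _s_at probe sets gave 3 BMP targets. Shares of all genes without the trend or without those probe sets are not given here, so these counts carry no background. With an offset of 1 the ratio count was 0 (limma, 13 at an unadjusted p under 0.05). Leaving out each replicate in turn gave 7 to 14 member probe sets, 3 to 4 genes, 0 to 13 ratios, 0 to 10 TGF-beta and 4 to 7 BMP ligands and receptors, 5 to 13 modifiers, 1 to 7 partners, 4 to 11 TGF-beta and 3 to 11 BMP targets and 1096 to 3906 of all genes. The lowest values came without replicate 1 of a group, which leaves 1 sample there. The low of 3 genes also came without 10A/143B replicate 3, where each group kept n = 2. Otherwise the cause was not tested. Signal limits the dim probe sets, since no detection calls were used.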
